A study of Mus musculus with 16 samples.

Results

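The small leucine-rich proteoglycans are a family of secreted matrix proteins, and 9 of its genes (Dcn, Bgn, Aspn, Fmod, Lum, Prelp, Omd, Ogn and Podn) were examined in mouse inguinal white adipose tissue (iWAT), the main subcutaneous fat depot. They were taken by gene symbol from a table of 54532 genes. Each symbol matched 1 gene, and all 9 had a mean of at least 50 reads per library in each comparison. The RNA was sequenced from the iWAT of male littermate mice that ate chow with 200 mg/kg doxycycline for 5 days from an age of 8 to 10 weeks. The 16 libraries formed 2 studies with 4 libraries per group. Has2_TG mice carried the Adiponectin-rtTA driver and a TRE-Has2 transgene, so that doxycycline switches on hyaluronan synthase 2, an enzyme that makes the matrix polysaccharide hyaluronan. PH20_TG mice carried the same driver with TRE-PH20, a transgene for the hyaluronidase encoded by Spam1, which cuts hyaluronan. The littermate controls, Has2_WT and PH20_WT, carried the driver without either transgene and ate the same chow. The driver is active in adipocytes, whereas the whole depot was sequenced, with its stroma, vessels and any attached lymph node or muscle.

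Each core protein of the family is built from leucine-rich repeats, most members bind collagen, and they are known for setting the width and spacing of collagen fibrils. Class I members are decorin (Dcn) and biglycan (Bgn), which carry chondroitin or dermatan sulfate chains, and asporin (Aspn), which has a run of acidic residues and no such chain. Class II members are fibromodulin (Fmod), lumican (Lum), osteoadherin (Omd) and the heparin-binding PRELP (Prelp), and several of them can carry keratan sulfate. Osteoglycin, also called mimecan (Ogn), is a class III member, and podocan (Podn) belongs to class V. In adipose tissue, Dcn and Lum are commonly used to recognise fibroblasts and stromal progenitors rather than adipocytes. Fewer cells of a type and less RNA per cell cannot be told apart in these whole-tissue libraries.

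Most of the 9 genes sit in small chromosomal groups, with positions given on GRCm38. Aspn (chr13:49544443-49567565), Omd (chr13:49582462-49592822) and Ogn (chr13:49608046-49624501) follow each other on the plus strand with 14.9 kb and 15.2 kb between them. All 3 lie within Cenpp (chr13:49464023-49652785), a centromere protein gene on the opposite strand, and only Aspn shares exon sequence with it, over 7 bases. Dcn (chr10:97479609-97518143) and Lum (chr10:97565128-97572703) are 47.0 kb apart on the plus strand. Prelp (chr1:133910304-133921414, minus strand) and Fmod (chr1:134037254-134048277, plus strand) are 116 kb apart and point away from each other. Bgn (chrX:73483602-73495933) and Podn (chr4:108014791-108096445, minus strand) have no other member beside them. Prelp shares 350 exon bases, 9.68% of its exon length, with the antisense gene Gm15851. Cenpp and Gm15851 reached at most 1.39 and 2.74 FPKM in any library.

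Promoter sequences from RefSeq (GRCm38.p6) were held for 7 of the 9 genes, all but Dcn and Lum. The 250 bases before the start are printed for Aspn and Ogn, the outer genes of the chromosome 13 group, which rose in Has2_TG. They are also printed for Bgn, which had no call in either study. Capitals mark matches on either strand to TATAAA, the letters of a TATA box, to CCAAT, the box of that name, or to GGGCGG, known as a GC box. In Ogn the matches of both strands overlap, as do neighbouring matches in Bgn.
Aspn (chr13:49544193-49544442, plus strand): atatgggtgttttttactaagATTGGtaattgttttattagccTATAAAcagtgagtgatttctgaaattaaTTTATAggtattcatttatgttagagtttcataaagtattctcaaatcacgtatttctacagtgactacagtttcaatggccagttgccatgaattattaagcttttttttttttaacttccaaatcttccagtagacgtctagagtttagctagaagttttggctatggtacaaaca
Ogn (chr13:49607765-49608014, plus strand): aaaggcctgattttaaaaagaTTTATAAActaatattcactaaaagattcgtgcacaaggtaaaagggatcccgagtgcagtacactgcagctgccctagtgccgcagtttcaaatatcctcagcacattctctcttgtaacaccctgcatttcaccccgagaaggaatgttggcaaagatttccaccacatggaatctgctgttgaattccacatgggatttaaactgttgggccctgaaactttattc
Bgn (chrX:73483351-73483600, plus strand): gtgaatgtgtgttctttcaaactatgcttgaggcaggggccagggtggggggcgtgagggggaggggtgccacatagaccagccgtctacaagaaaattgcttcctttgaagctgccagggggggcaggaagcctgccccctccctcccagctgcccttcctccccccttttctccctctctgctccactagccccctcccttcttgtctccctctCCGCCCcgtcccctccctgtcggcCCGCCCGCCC

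The 3 windows differed in base composition. Aspn had 30.0% G and C, a value that 1.61% of all 32851 RefSeq promoter windows of this length reached or fell below. Ogn had 42.0% and Omd, the gene between them, 38.4%, against a median of 52.4% over all windows. Bgn had 64.4% and the 2 Podn windows 64.0% and 78.0%, whereas Prelp (55.6%) and Fmod (51.2%) were near the median. TATAAA was in 12.4% of all windows, CCAAT in 33.8% and GGGCGG in 32.7%. The window of Omd, which also rose in Has2_TG and is not printed, held none of these matches. The TATAAA matches began 207 and 178 bases before the start in Aspn, and 227 and 229 bases before it in Ogn. The AP-1 element TGANTCA, in 6.75% of all windows, matched no window of the family.

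The libraries held 14421692 to 26751729 reads on genes, with a median of 18452544.5. Has2 was 0.585 ± 0.176 FPKM in Has2_WT and 2.59 ± 0.631 FPKM in Has2_TG (SD, n = 4 each), and all Has2_TG libraries were above all Has2_WT libraries. Spam1 had 6, 12 and 5 reads in PH20_TG2, PH20_TG3 and PH20_TG4, and 0 reads in PH20_TG1 and in all libraries of the other groups. The library labelled PH20_TG1 also had 3.32 FPKM of Has2 and PH20_TG4 had 3.26 FPKM, against 0.0990 and 0.380 FPKM in PH20_TG3 and PH20_TG2 and at most 0.897 FPKM in PH20_WT. Whether PH20_TG1 and PH20_TG4 carry the right labels could not be settled from these values. Both were kept in their labelled group, so every PH20_TG mean and every comparison with the Has2 study rests on those labels. The same holds for the correlations after removal of group means. Values without PH20_TG1 are given where they change a call. All 8 adipocyte markers had reads in every group and none was called changed in either study. The tendon and cartilage markers, from tissues where several members are abundant, summed to at most 2.82 FPKM in any library, and none of the 7 had enough reads to be tested.

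The family spanned a wide range of levels. By the median FPKM over the 16 libraries, the order was Dcn (123), Prelp (101), Ogn (46.7), Podn (43.7), Bgn (32.5), Lum (26.7), Aspn (16.7), Omd (1.76) and Fmod (0.861). FPKM divides by gene length, so a comparison of these levels between genes depends on the length used. Prelp was above Ogn in all 16 libraries, and the same held for Lum over Aspn and for Aspn over Omd. The other neighbours changed places between libraries. Dcn was above Prelp in 9 of 16 libraries, in 0 of 4 Has2_WT and in 4 of 4 Has2_TG. Ogn was above Podn in 9 of 16, in 1 of 4 Has2_WT and in 4 of 4 Has2_TG. Podn was above Bgn in 11, Bgn above Lum in 12, and Omd above Fmod in 10 of the 16 libraries. The deposited lengths count all exons of a gene, which for Dcn is 5838 bases against 1758 in its longest coding transcript, and for Bgn 6099 against 2419. With the longest coding transcript as the length, Dcn stayed first, with a median of 407 FPKM, and was above Prelp in 15 of 16 libraries, including 4 of 4 Has2_WT. The order of Dcn and Prelp in Has2_WT thus reversed with the length used. Bgn moved from rank 5 to rank 3, with 81.8 FPKM, and was above Podn in 12 of 16 libraries and above Lum in all 16. Ogn was then above Podn in 7 of 16, in 0 of 4 Has2_WT and in 4 of 4 Has2_TG.

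**Figure D1:**
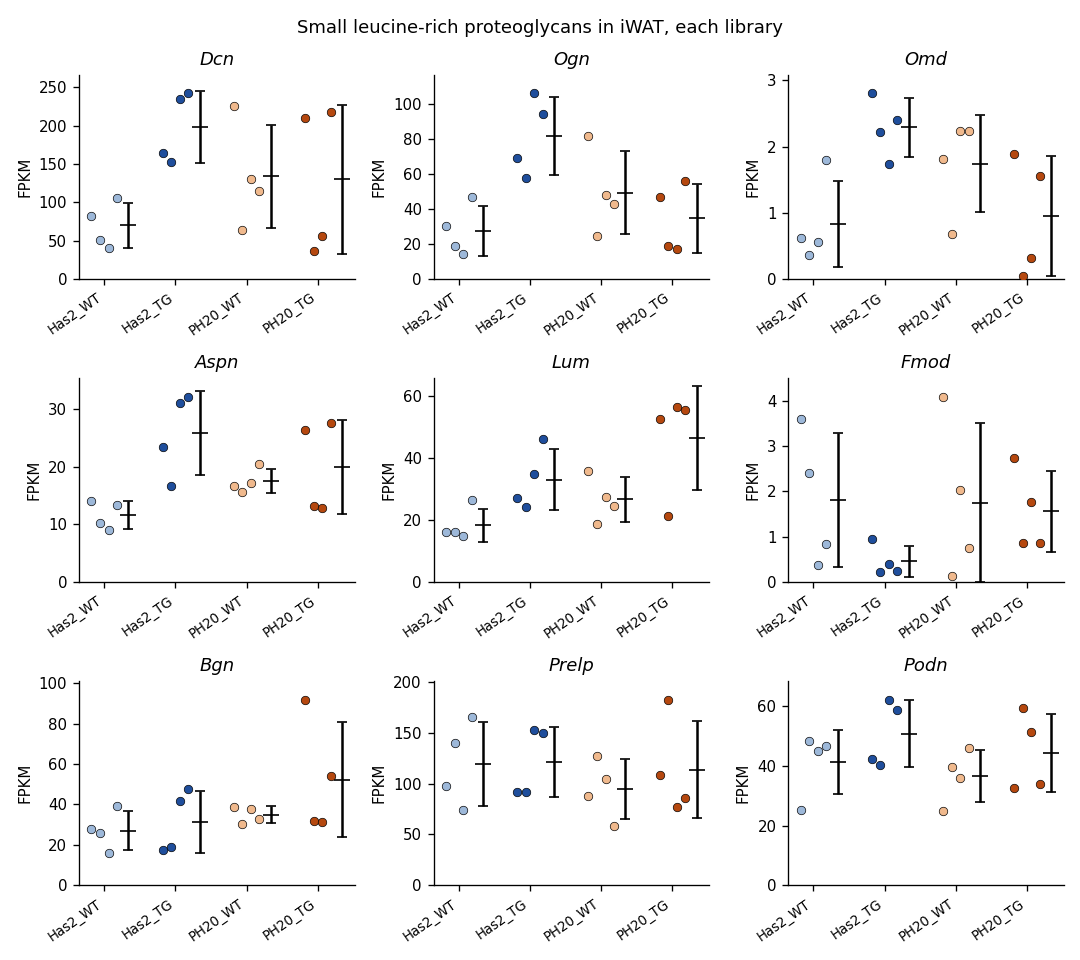
FPKM of each of the 9 genes (vertical axes, linear, from 0) in the 4 groups (horizontal axes). Points are libraries, and the bar beside them is the mean with 1 SD (n = 4). All Has2_TG libraries lie above all Has2_WT libraries for Dcn, Ogn and Aspn, and the PH20_TG libraries are split into high and low pairs for Dcn, Ogn, Aspn and Omd.

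The first comparison asked which members change when adipocytes are made to produce more hyaluronan. Dcn, Ogn, Omd, Aspn and Lum rose in Has2_TG, by 1.79-fold to 3.22-fold, and Fmod fell. Bgn, Prelp and Podn did not pass the test. Changes were called at an unadjusted p under 0.05 in limma's moderated test on log2(FPKM + 0.1). Thus 6 of the 9 members were called, against 10.0% of all 12606 genes tested, and 5 were higher, against 6.25% of all genes. None of the 9 had an adjusted p under 0.05 in limma, which 0.103% of all genes did. The median log2 change was 0.84 over the members and -0.03 over all genes.

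Dcn, whose protein binds collagen I and also transforming growth factor beta, had 82.7, 50.4, 40.6 and 105 FPKM in Has2_WT1 to Has2_WT4. In Has2_TG1 to Has2_TG4 it had 164, 152, 234 and 242 FPKM. The groups did not overlap, as in 6.19% of all genes tested. Dcn thus rose 2.98-fold, by 1.58 on the log2 scale (SE 0.31, adjusted p = 0.0776 in limma).

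Ogn had 29.9, 18.6, 14.1 and 46.5 FPKM in the Has2_WT libraries and 69.1, 57.5, 106 and 94.2 FPKM in the Has2_TG libraries. These groups did not overlap either, and within each group the libraries that were high for Dcn tended to be high for Ogn. Ogn rose by 1.69 on the log2 scale (SE 0.36, adjusted p = 0.0906 in limma), the largest value of the family here, although Omd was above it with quantile normalization (1.80 against 1.67) and with voom weights (1.72 against 1.67). Aspn, of the same chromosome 13 group, is an inhibitor of transforming growth factor beta signalling in cartilage. It had 14.1, 10.2, 9.08 and 13.3 FPKM in Has2_WT and 23.4, 16.6, 31.1 and 32.2 FPKM in Has2_TG. It was the third member without overlap, and it rose by 1.11 (SE 0.24, adjusted p = 0.0944 in limma).

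Omd, the gene between Aspn and Ogn and best known from bone, was low in all libraries, with 14 to 159 reads in this study. It had 0.620, 0.357, 0.550 and 1.79 FPKM in Has2_WT and 2.80, 2.22, 1.73 and 2.40 FPKM in Has2_TG. The groups overlapped through Has2_WT4, which was just above Has2_TG3. Omd rose by 1.56 on the log2 scale (SE 0.43, adjusted p = 0.195 in limma). All 3 members of the chromosome 13 group thus passed the unadjusted threshold in the same direction.

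Lum, which binds collagen fibrils in skin, cornea and adipose stroma, had 16.04, 16.002, 14.8 and 26.4 FPKM in Has2_WT and 27.0, 24.3, 34.8 and 46.2 FPKM in Has2_TG. Has2_WT4 was the highest Has2_WT library for Lum, Dcn, Ogn, Omd, Prelp and Bgn, and for Lum it was above Has2_TG2. Lum rose by 0.84 on the log2 scale (SE 0.25, adjusted p = 0.244 in limma). It was smaller than that of Dcn, its neighbour on chromosome 10, at 1.58.

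Fmod, a regulator of collagen fibril assembly in tendon, had 3.61, 2.41, 0.374 and 0.839 FPKM in Has2_WT and 0.948, 0.219, 0.404 and 0.246 FPKM in Has2_TG. Only Has2_WT1 and Has2_WT2 were above every Has2_TG library. Its log2 change of -1.54 (SE 0.67, adjusted p = 0.488 in limma) passed the unadjusted threshold narrowly, with a 95% interval from -3.05 to -0.03. Has2_WT1 and Has2_WT2 were also the libraries of this study with B cell transcripts. The 8 B cell markers summed to 299 and 245 FPKM there and to at most 3.22 FPKM in the other 6 libraries. With a B cell score as a covariate the log2 change of Fmod was -0.54 and not called. That score itself differs between the groups, with 2 of 8 markers called lower in Has2_TG, against 3.75% of all genes. The call was also lost with quantile normalization (-1.60), voom weights (-1.82) or a skeletal muscle score (-1.54), among other settings. Without Has2_WT1 the gene had too few reads to be tested. Without Has2_WT2, Has2_TG2, Has2_TG3 or Has2_TG4 the log2 change of Fmod was -1.27, -1.33, -1.55 and -1.37 and no longer called.

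The remaining members were expressed at 15.7 FPKM or more and overlapped widely between the groups. Bgn, a proteoglycan that also activates Toll-like receptors, had 27.1 ± 9.55 FPKM in Has2_WT and 31.3 ± 15.4 FPKM in Has2_TG (SD, n = 4 each). Its log2 fold change of 0.14 had a 95% interval from -0.71 to 0.99. Prelp, which ties basement membranes to connective tissue, had 119 ± 41.1 and 121 ± 34.2 FPKM, and its log2 fold change of 0.05 had an interval from -0.59 to 0.69. Podn, a podocan that restrains smooth muscle growth, had 41.4 ± 10.9 and 50.9 ± 11.2 FPKM, with a log2 fold change of 0.32 and an interval from -0.22 to 0.86. All 3 intervals include 0, and those of Bgn and Podn also include a rise of the size seen for Lum, 0.84.

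**Figure D2:**
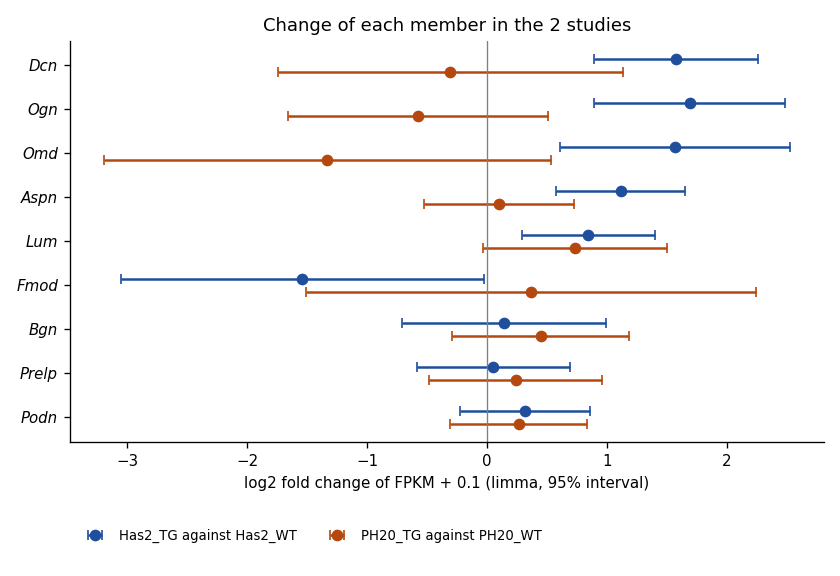
Change of each gene in Has2_TG against Has2_WT (blue) and PH20_TG against PH20_WT (orange), as log2 fold change of FPKM + 0.1 (horizontal axis) with the 95% interval from limma. In the Has2 study the intervals of Dcn, Ogn, Omd, Aspn and Lum lie above 0 and that of Fmod just below it, and in the PH20 study every interval includes 0.

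Markers of fibroblastic progenitors rose together with these members. Of 8 such markers, 5 were called higher in Has2_TG, against 6.25% of all genes, and 0 were called lower. The median log2 change of the markers was 1.37. Their summed level was 435, 644, 476 and 847 FPKM in Has2_WT and 812, 853, 1241 and 1174 FPKM in Has2_TG. Has2_WT4, with the highest Dcn of the controls, also had the highest marker sum of the controls. With the mean log2 level of these markers as a covariate, a term chosen after the values were seen and one that itself differs between the groups, the count of called members was 2 instead of 6. The log2 change was then 0.08 for Dcn, 0.08 for Aspn, -0.08 for Ogn, -0.11 for Lum and 0.83 for Omd, none of them called, and Bgn (-1.71) and Prelp (-1.13) were called lower. Among macrophage markers, 4 of 6 were also called higher, and their part in the result was not tested.

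The make-up of the family changed with the levels. The 9 genes summed to 317 ± 95.4 FPKM in Has2_WT and 545 ± 144 FPKM in Has2_TG (SD, n = 4 each). Dcn made up 16.1 to 27.8% of this sum in Has2_WT and 35.3 to 37.7% in Has2_TG. Ogn made up 5.94 to 10.5% in Has2_WT and 14.0 to 15.9% in Has2_TG. Prelp, with like mean FPKM in both groups, went from 32.7 to 44.8% of the sum in Has2_WT to 20.9 to 22.9% in Has2_TG. On the deposited lengths Prelp had the highest level in all Has2_WT libraries and Dcn in all Has2_TG libraries. With the longest coding transcript Dcn was the highest in both groups, and its share was 34.5 to 50.8% in Has2_WT and 60.2 to 63.3% in Has2_TG. The share of Prelp then averaged 22.4% and 11.3%, and the shares of Ogn were 3.82 to 6.08% and 7.09 to 8.18%. Bgn made up 7.33 to 9.39% in Has2_WT and 3.99 to 7.04% in Has2_TG on the deposited lengths. With the longest coding transcript its shares were 11.4 to 13.3% and 5.12 to 8.99%. The shares of Dcn, Ogn, Prelp and Bgn thus did not overlap between the groups on either length. Shares are parts of the same sum, so a larger share of Dcn lowers those of other members. No background was computed for them. The 4 Has2_TG libraries were alike in their make-up, with an SD of the Dcn share of 1.15 percentage points against 5.14 in Has2_WT and 14.7 in PH20_TG.

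**Figure D3:**
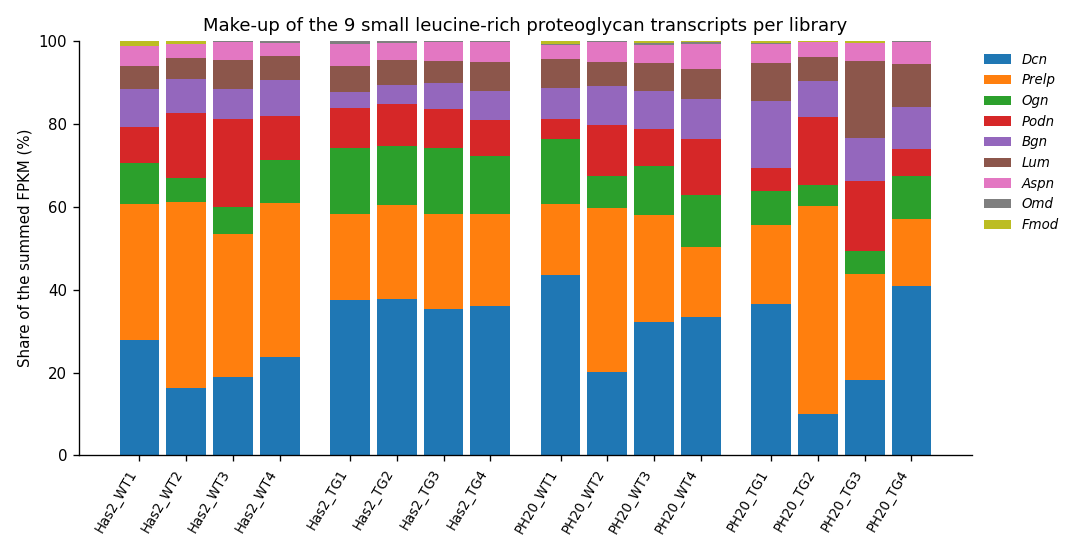
Share of each gene in the summed FPKM of the 9 genes (vertical axis, percent) in each of the 16 libraries (horizontal axis, grouped by genotype). Dcn takes 35.3 to 37.7% in the Has2_TG libraries and 16.1 to 27.8% in Has2_WT, and it ranges from 10.0 to 40.9% in PH20_TG.

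The second comparison asked the same of a transgene whose product degrades hyaluronan. No member was called in PH20_TG against PH20_WT, 0 of 9 in limma at an unadjusted p under 0.05, against 6.59% of 12532 genes. With voom weights 1 of the 9, Lum, was called. No gene of the table had an adjusted p under 0.05 (0%). The groups overlapped for all 9 members, whereas 4.54% of all genes did not overlap. The log2 change was above 0 for 6 of the 9, with a median of 0.24.

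Dcn varied widely in both groups of this study. It had 225, 64.3, 131 and 115 FPKM in PH20_WT1 to PH20_WT4 and 210, 36.5, 55.6 and 218 FPKM in PH20_TG1 to PH20_TG4. PH20_TG1 and PH20_TG4 were near the highest control, and PH20_TG2 and PH20_TG3 were below every control. The log2 fold change was -0.31 with a 95% interval from -1.74 to 1.13. The high pair also had the high Has2 levels given above and the high progenitor marker sums, 1136 and 1253 FPKM against 661 and 547 FPKM in PH20_TG2 and PH20_TG3.

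The chromosome 13 genes followed the same split. Ogn had 81.4, 24.4, 47.8 and 42.8 FPKM in PH20_WT and 46.8, 18.7, 16.7 and 55.8 FPKM in PH20_TG, a log2 change of -0.58 with an interval from -1.66 to 0.51. Aspn had 16.7, 15.7, 17.2 and 20.6 FPKM in PH20_WT, the tightest of its groups, and 26.4, 13.2, 12.8 and 27.5 FPKM in PH20_TG. Its PH20_TG libraries therefore lay on both sides of all controls, 2 above and 2 below. Omd had 1.81, 0.678, 2.23 and 2.23 FPKM in PH20_WT and 1.89, 0.0447, 0.320 and 1.56 FPKM in PH20_TG, where PH20_TG2 rested on 2 reads. The log2 change of Omd was -1.33 (SE 0.82, adjusted p = 0.745 in limma). Without PH20_TG1, the library with no Spam1 read, it was -1.86 and passed the unadjusted threshold, so that 1 of 9 members was then called.

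Lum came nearest to a call. It had 35.9, 18.6, 27.6 and 24.7 FPKM in PH20_WT and 52.7, 21.3, 56.5 and 55.5 FPKM in PH20_TG, so that 3 PH20_TG libraries were above all controls and PH20_TG2 was below 3 of them. Its log2 change was 0.74 (SE 0.34, adjusted p = 0.731 in limma), with a 95% interval from -0.03 to 1.50. Without PH20_TG2 it was 1.08 and without PH20_WT1 it was 0.89, and both values passed the unadjusted threshold. Lum also passed it in 5 of 13 other settings. Among them were voom weights (0.75), the B cell covariate (1.05) and the progenitor covariate (0.85), none with an adjusted p under 0.05. PH20_TG3 combined the highest Lum level of all 16 libraries with a Dcn level below every PH20_WT library.

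Bgn had 38.9, 30.1, 37.5 and 33.0 FPKM in PH20_WT and 91.8, 31.9, 31.5 and 54.1 FPKM in PH20_TG. PH20_TG1 held the highest Bgn level of all 16 libraries. The log2 change of Bgn was 0.44, with an interval from -0.29 to 1.18. Fmod had 4.10, 0.135, 2.04 and 0.749 FPKM in PH20_WT and 2.74, 0.852, 1.78 and 0.870 FPKM in PH20_TG, with a log2 change of 0.36 and an interval from -1.51 to 2.24. Its highest controls, PH20_WT1 and PH20_WT3, were the ones with B cell markers, which summed to 317 and 118 FPKM there and to at most 6.44 FPKM in the other libraries of this study. Once the B cell score was added to the fit, the log2 change of Fmod was 1.89 and passed the unadjusted threshold. This score too differs between the groups, with 5 of 8 markers called lower in PH20_TG, against 3.39% of all genes. Prelp changed by 0.24 and Podn by 0.26 on the log2 scale, with 95% intervals from -0.49 to 0.96 and from -0.31 to 0.84. Skeletal muscle markers also differed, with 9 of 10 called lower in PH20_TG, against 3.39% of all genes. They summed to 239 to 1011 FPKM in PH20_WT and 10.5 to 282 FPKM in PH20_TG. Their part in these results was not tested beyond the covariate given in the closing section.

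**Figure D4:**
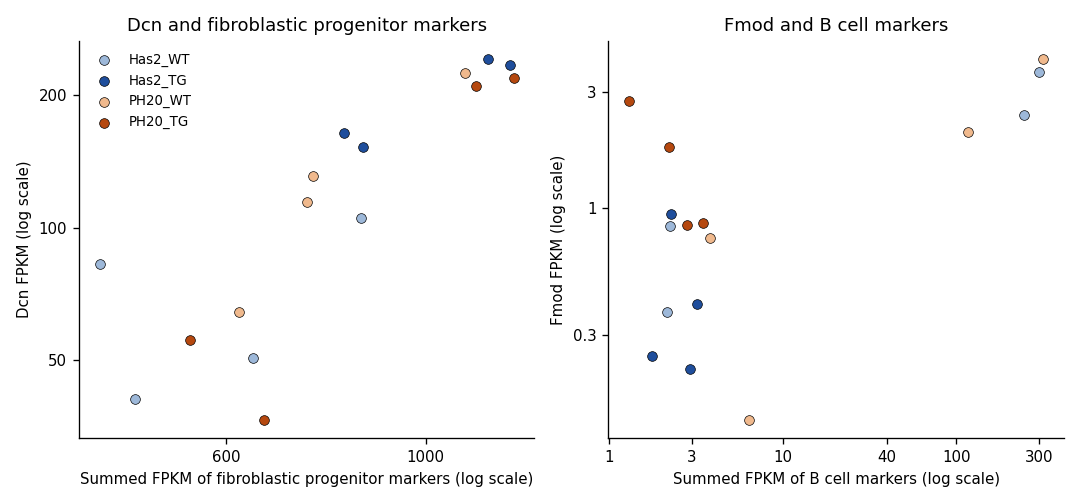
Left, Dcn against the summed level of 8 fibroblastic progenitor markers, and right, Fmod against the summed level of 8 B cell markers, in FPKM on log axes, with 1 point per library and colours for the groups. The 5 libraries with the highest progenitor sums, 1107 to 1253 FPKM, all have at least 210 FPKM of Dcn, and the 4 libraries with 118 FPKM or more of B cell markers all have at least 2.04 FPKM of Fmod. PH20_TG1 (2.74 FPKM) and PH20_TG3 (1.78 FPKM) also have high Fmod, with B cell marker sums of 1.31 and 2.21 FPKM.

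The changes of the 2 studies were compared by their interaction over all 16 libraries. For Dcn, Ogn, Omd and Aspn the log2 change was higher in the Has2 study than in the PH20 study, so that 4 of 9 members were called against 7.70% of 12593 genes, none with an adjusted p under 0.05. The difference of log2 changes was 2.90 for Omd (SE 0.98, adjusted p = 0.598 in limma), made of 1.56 in the Has2 study and -1.33 in the PH20 study. Dcn (-0.31) and Ogn (-0.58) also had negative values in the PH20 study. For Ogn it was 2.26 (SE 0.64, adjusted p = 0.567 in limma). For Dcn it was 1.88 (SE 0.75) and for Aspn 1.01 (SE 0.38), with adjusted p of 0.614 and 0.606 in limma. Dcn lost its call without Has2_WT3, PH20_WT1, PH20_TG2 or PH20_TG3, with differences of 1.66, 1.59, 1.41 and 1.61. With the progenitor score as a covariate, Ogn was still called higher in the Has2 study, and Dcn, Omd and Aspn were not called. Bgn (-1.13) and Fmod (-2.82) were then called in the opposite direction, lower in the Has2 study. For Lum the difference was 0.11, with a 95% interval from -0.84 to 1.05, so the change in Lum was not shown to differ between the studies.

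The control groups of the 2 studies carried the same driver, and mouse line, litter and handling cannot be told apart between them. Aspn was the only member called, 1 of 9 against 10.3% of all genes, with a log2 difference of -0.60 (SE 0.27, adjusted p = 0.475 in limma) of Has2_WT from PH20_WT. All 4 Has2_WT libraries were below all PH20_WT libraries for Aspn. The share of all genes without overlap was not computed for these groups, and 1 call of 9 is near the 10.3% of all genes. This call was lost without Has2_WT2, Has2_WT3, PH20_WT1, PH20_WT3 or PH20_WT4. Without Has2_WT4 the called members were Aspn, Lum and Ogn, and without PH20_WT2 they were Aspn, Dcn and Ogn. Ogn (-0.87), Dcn (-0.90) and Omd (-1.08) also had lower values in Has2_WT, with intervals that include 0. For these genes the Has2 study thus started from controls with lower values, and mean Dcn was 69.7 ± 29.7 FPKM in Has2_WT and 134 ± 67.3 FPKM in PH20_WT (SD, n = 4 each).

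The members did not vary as 1 block among animals of the same group. After removal of the group means, Dcn and Ogn varied together with a Pearson r of 0.95 over the 16 libraries, Dcn and Omd with 0.86, Aspn and Bgn with 0.83, and Dcn and Aspn with 0.81. Dcn and its neighbour Lum had an r of 0.76. Prelp had a median r of -0.01 with the other members and Podn of -0.36, and Podn and Dcn had -0.57. Fmod had a median r of 0.24. These are descriptions, since the libraries share depth, dissection and cell make-up. The deviations also hold the split of PH20_TG1 and PH20_TG4 from PH20_TG2 and PH20_TG3, and so rest on those labels. Values of r without the PH20_TG libraries were not computed. Of the 3 genes without a call in the Has2 study, Bgn had an r of 0.77 with Dcn, against -0.09 for Prelp.

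**Figure D5:**
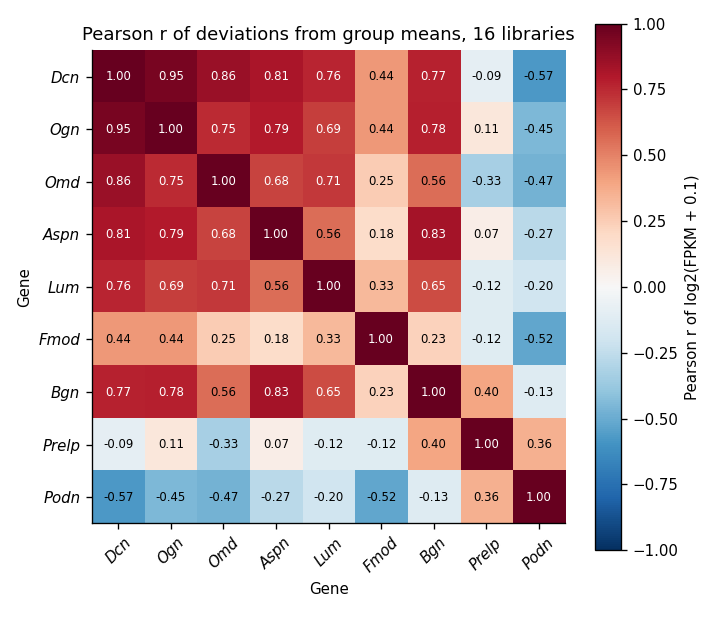
Pearson r between the log2(FPKM + 0.1) values of the 9 genes after removal of the group means, over 16 libraries, with the colour scale from -1 to 1. Dcn, Ogn, Omd, Aspn, Lum and Bgn have r of 0.56 or more with each other, and Prelp, Podn and Fmod stand apart.

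Among 12297 genes tested in both studies, those outside the family whose log2 levels over the 16 libraries were most like Dcn were Rnase4 (r = 0.99), a secreted ribonuclease, Antxr1 (0.99), a collagen-binding receptor, Mmp2 (0.98), a gelatinase, Dpep1 (0.98), a membrane dipeptidase, and Timp2 (0.98), an inhibitor of matrix metalloproteinases. Dpep1 was also the nearest gene to Ogn (0.97). Tek, a receptor of vessel endothelium, was nearest to Aspn (0.96), and the endothelial gene Ecscr was nearest to Bgn (0.91). Pcolce, the enhancer of procollagen processing, was nearest to Lum (0.91). Emp1 was nearest to Prelp (0.93), Cd209f to Omd (0.94), Ffar2, a receptor for short-chain fatty acids, to Podn (0.94), and Galnt6 to Fmod (0.90). Only Dpep1 was named for more than 1 member, and no p is given since these genes were picked for their likeness.

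Partners of the family were examined in lists of its binding partners and enzymes. Of 12 collagens tested, 8 were higher and 0 lower in Has2_TG, with a median log2 change of 0.79, against 6.25% of all genes called higher. The progenitor markers (5 of 8 higher, median 1.37) and macrophage markers (4 of 6 higher) rose in the same libraries, and their part in the rise of these lists was not tested. The collagens included Col14a1 (2.01, SE 0.31), a fibril-associated collagen, Col1a1 (1.53, SE 0.32) and Col1a2 (1.44, SE 0.29), the chains of collagen I, and Col3a1 (1.00, SE 0.27), the collagen of reticular fibres. In PH20_TG, 3 of 12 were higher and 0 lower, namely Col5a3 (0.65), Col6a3 (0.75) and Col6a2 (0.62), against 6.59% of all genes called in either direction. Of 10 proteases and their enhancers, 7 were higher and 0 lower in Has2_TG, and 0 of 10 were called in PH20_TG in limma. Bmp1 (1.29, SE 0.23), which removes the propeptides of biglycan and of procollagen, was among the 7, with Pcolce2 (2.09, SE 0.40), Pcolce (0.97, SE 0.22) and Mmp2 (1.48, SE 0.34). None of these genes had an adjusted p under 0.05.

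The growth factors and receptors that bind the family were higher for 6 of 13 genes in Has2_TG, against 6.25% of all genes, and lower for 0. Tgfb2 (1.95, SE 0.45) is a ligand held by decorin and biglycan, Egfr (1.23, SE 0.34) is a receptor bound by decorin, Cd14 (1.10, SE 0.33) is a co-receptor for biglycan, and Bmp4 (1.08, SE 0.35) is a bone morphogenetic protein. In PH20_TG, 1 of 12 was called, Lrp1 (0.35, SE 0.14), an endocytic receptor for decorin, a share near the 6.59% of all genes. Of 22 enzymes that make chondroitin and dermatan sulfate chains, 3 were higher and 1 lower in Has2_TG, against 10.0% of all genes called. Those higher were Ugdh (0.91, SE 0.20), which makes UDP-glucuronic acid, a precursor of these chains and of hyaluronan, Csgalnact2 (0.73, SE 0.21), which starts chondroitin chains, and Ust (0.79, SE 0.31), a uronyl sulfotransferase. The lower one was Xylt1 (-1.11, SE 0.39), which attaches the first xylose of the chain to the core protein. In PH20_TG, Chpf2 (0.53) and Chpf (0.32), chondroitin polymerising factors, were the 2 called of 22, near the 6.59% of all genes.

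Among 4 keratan sulfate enzymes tested, B4galt1 (0.55, SE 0.24) was called in Has2_TG and 0 in PH20_TG in limma. Of 3 hyaluronan-binding proteoglycans tested, Vcan (1.13, SE 0.34), the versican of loose connective tissue, was higher in Has2_TG and Ncan (-1.13, SE 0.40), neurocan, was lower. Ncan was higher in PH20_TG (1.45, SE 0.53), where 2 of this list were tested. Of the other 8 small leucine-rich proteoglycans, 2 had enough reads, and Chadl (0.58, SE 0.24) was called in Has2_TG and neither in PH20_TG. Over all genes, 10.0% were called in the Has2 study and 6.59% in the PH20 study. These 3 lists, with 2 to 4 genes tested, are too short to compare with those shares. In the Has2 study the calls among collagens and proteases were all higher, whereas the family itself, through Fmod, and the chondroitin chain enzymes, through Xylt1, had calls in both directions.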

How the data were processed

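Libraries were made from total iWAT RNA. The authors aligned reads with STAR 2.7.9a to GRCm38 and counted them per gene with STAR, and the values they deposited are FPKM. FPKM times gene length gave whole multiples of 1 step in each library (tolerance 0.01), and reads were taken from it. Genes reaching 50 reads on average were tested with limma 3.58.1 (R 4.3.3) on log2(FPKM + 0.1), with a variance trend. Fold changes are on that scale, which understates those of low genes. The threshold was an unadjusted p under 0.05, two-sided, with Benjamini-Hochberg adjusted p over all genes beside it. DESeq2, named in the methods of the study, was not run on the recovered reads, for which voom weights were an alternative. Libraries were grouped by their labels, and p-values measure the spread between 4 mice per group. Whether counting used strand is not given in the sources used here. Scores are mean log2 levels of marker lists.

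Named genes are all members, the transgenes, up to 4 called genes of each partner list and study, and the genes most like each member. Members and lists were chosen with earlier results of these data known. In simulated counts of the Has2 comparison (12600 genes) the test called 83% of 2-fold changes, 100% of 4-fold changes and 4.95% of unchanged genes. For the interaction between the studies it called 57% of 2-fold changes. The simulation gave every gene the same dispersion, with no shared shifts in cell make-up. In Has2_WT the SD was 42.6% of the mean for Dcn and 82.0% for Fmod, so these shares do not carry over to such members. No pair of libraries was alike within sampling noise (smallest chi-square per degree of freedom 28.7 over 120 pairs). Alternatives were another pseudocount, other minimums, scalings and weights, marker scores, a replicate block and each library left out.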

Additional observations from a re-analysis of the deposited data

Results flagged for a closer look

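In 36 groups of 4 libraries, 3 libraries stood farther from the rest than Dixon's 95% limit allows, where chance gives about 1 in 20 groups. They were Lum in Has2_WT4 (26.4 FPKM, against 14.8 to 16.04 in the other Has2_WT libraries), Lum in PH20_TG2 (21.3 FPKM, against 52.7 to 56.5) and Podn in Has2_WT1 (25.2 FPKM, against 45.1 to 48.5). Without PH20_TG2, Lum was called higher in PH20_TG, at 1.08 on the log2 scale, and without Has2_WT4 its change in the Has2 study was 1.03.

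The changes of 4 members differed between the studies in the interaction test, at an unadjusted limma p under 0.05 and no adjusted p under 0.05. Their differences in log2 change were 1.88 for Dcn, 1.01 for Aspn, 2.90 for Omd and 2.26 for Ogn. In each of the 4 genes PH20_TG1 and PH20_TG4 were above PH20_TG2 and PH20_TG3, and the causes of that split were not tested.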

How the results depend on the processing

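The 5 rises in the Has2 study were called in every setting but the progenitor covariate, and Fmod was not. The number of called members in the Has2 study was 5 to 6 with 1 library left out and 2 with the progenitor covariate, added after the data were seen, where Bgn (-1.71), Lum (-0.11), Prelp (-1.13) and Ogn (-0.084) reversed. In the PH20 study the count went from 0 to 1 with voom weights, 1 with all 16 libraries in one fit, 2 with the B cell covariate, 2 with the progenitor covariate and 0 to 1 with 1 library left out. Reversed there were Dcn (0.32), Fmod (-0.69) and Prelp (-0.18) with the muscle covariate, Dcn (0.27), Ogn (0.0046) and Podn (-0.079) with the B cell covariate, and Dcn (0.063) with the progenitor covariate. Between the studies the count stayed at 3 to 5, and Bgn (0.21) and Prelp (0.25) with the muscle covariate and Lum (-0.41) with the progenitor covariate reversed. Between the control groups the count went from 1 to 0 with voom weights, 0 without the variance trend, 2 with the muscle covariate, 0 with the progenitor covariate and 0 to 3 with 1 library left out. Prelp (-0.047) and Podn (-0.073) with the muscle covariate and Podn (-0.028) with the progenitor covariate reversed there. The causes were not tested.

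With 1 library left out, log2 values that changed sign ranged from -0.15 to 0.23 for Prelp and -0.10 to 0.37 for Bgn in the Has2 study. In the PH20 study they ranged from -0.40 to 0.98 for Fmod, -0.083 to 0.28 for Aspn, -0.69 to 0.17 for Dcn and -0.019 to 0.40 for Prelp. Between the studies they ranged from -0.17 to 0.23 for Podn, -0.23 to 0.30 for Lum, -0.39 to 0.072 for Prelp and -0.55 to 0.016 for Bgn. Between the controls they ranged from -0.46 to 0.92 for Fmod and from -0.0094 to 0.38 for Podn.

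Replicate numbers did not pair the libraries of the Has2 study, where same-numbered libraries had deviations correlated at -0.18 to 0.13. In the PH20 study these correlations were -0.04 to 0.42. There PH20_TG1 (0.35) and PH20_TG2 (0.42) were most like the control of the same number, and PH20_TG3 and PH20_TG4 were not. Whether the numbers mark pairs in the PH20 study was not settled. With a replicate block the calls were 6 in the Has2 study, 2 in the PH20 study (Lum higher, Omd lower) and 5 between the studies. No blocked value exists for the control groups, whose difference cannot be told apart from that of their blocks. Without Has2_WT1, Fmod fell under the minimum of 50 reads in the Has2 study, and so did Omd in the PH20 study without PH20_WT1 or PH20_WT3. Over all genes, a replicate block moved the PH20 calls from 826 to 1302. Omd and Fmod had as few as 2 and 7 reads in a library, which limits their precision.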
